A study of Caenorhabditis elegans with 12 samples.

Results

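The pharynx is the feeding organ of Caenorhabditis elegans, a muscular pump that draws in and grinds bacteria and is lined by its own cuticle. Transcripts of 37 pharynx genes were followed here, out of 17118 genes that could be read by a probe set with exactly 1 gene symbol. They were chosen by name, with earlier results of these data known. The set held 6 markers of pharynx cells (pha-4, myo-1, myo-2, myo-5, tnt-4 and marg-1), 11 abu genes, 16 idpp genes and 4 nspb genes. Where a gene had several such probe sets, the one with the highest mean over all arrays stood for it.

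Whole L4 larvae of 4 groups had been profiled on 12 one-colour arrays, 3 per group. The first group was MT KO, mtl-1,mtl-2(zs1), a strain in the N2 (Bristol) background that lacks both metallothionein genes, grown with 30 µM Cd from hatching on; the second was MT KO without Cd. The remaining groups were wild-type N2 larvae with the same Cd exposure and wild-type N2 larvae without it. All animals were grown at 20 °C on NGM plates seeded with Escherichia coli OP50, from synchronised L1 larvae. Metallothioneins are small cysteine-rich proteins that bind Cd, and the study set the response to Cd with them beside the response without them. The labels do not say whether the 3 arrays of a group came from separate cultures, and p-values therefore measure only how far these arrays spread, in part perhaps for technical reasons.

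The organ is specified by pha-4, a FoxA transcription factor active in all pharynx cells. Its muscle uses its own myosin heavy chains and troponins, distinct from those of the body wall. The abu genes, named for their activation when the unfolded protein response is blocked, encode cysteine-rich proteins with glutamine- and asparagine-rich, prion-like stretches that build the pharyngeal cuticle, and their transcripts cycle with the moults. The idpp genes take their name from intrinsically disordered proteins expressed in the pharynx, and the nspb genes form group B of the nematode-specific peptide families.

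Values are log2 GCRMA values, a normalised signal per probe set and array in which 1 unit is a doubling. Arrays of a group correlated at r between 0.991 and 0.997. The transcript of mtl-1, a target of the knockout, lay between 3.83 and 4.26 in MT KO with Cd and between 3.43 and 3.73 in MT KO without Cd, against 9.58 to 10.28 in wild type with Cd and 4.47 to 5.10 in wild type without Cd. The brightest probe set of mtl-2 lay between 3.56 and 4.36 in the 6 MT KO arrays and between 11.11 and 11.81 in the 6 wild-type arrays. The median of all values, 4.03, serves as a level below which a signal may be background. Of the 37 pharynx genes, 28 exceeded it in the mean of at least 1 group. The other 9, abu-2, abu-3, abu-4, idpp-2, idpp-5, idpp-6, idpp-8, idpp-10 and idpp-13, stayed below it in every group mean.

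In MT KO larvae Cd raised most of these transcripts. Of 37 genes, 27 rose, 0 fell and 10 did not pass (limma, Benjamini-Hochberg adjusted p under 0.05 over 22548 probe sets), where 11.5% of all probe sets rose and 11% fell. The median log2 difference was 1.27 over the 37 genes and 0.02 over all probe sets. In wild type with the same exposure, 7 of the 37 rose and 1 fell, where 6.44% of all probe sets rose and 5.5% fell, and the median was 0.14. In RNA of whole animals, a higher transcript level in pharynx cells and a larger share of pharynx RNA in the animal cannot be told apart. The MT KO and wild-type responses come from different arrays, while the comparisons of the strains given further on use the same arrays again.

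**Figure D1:**
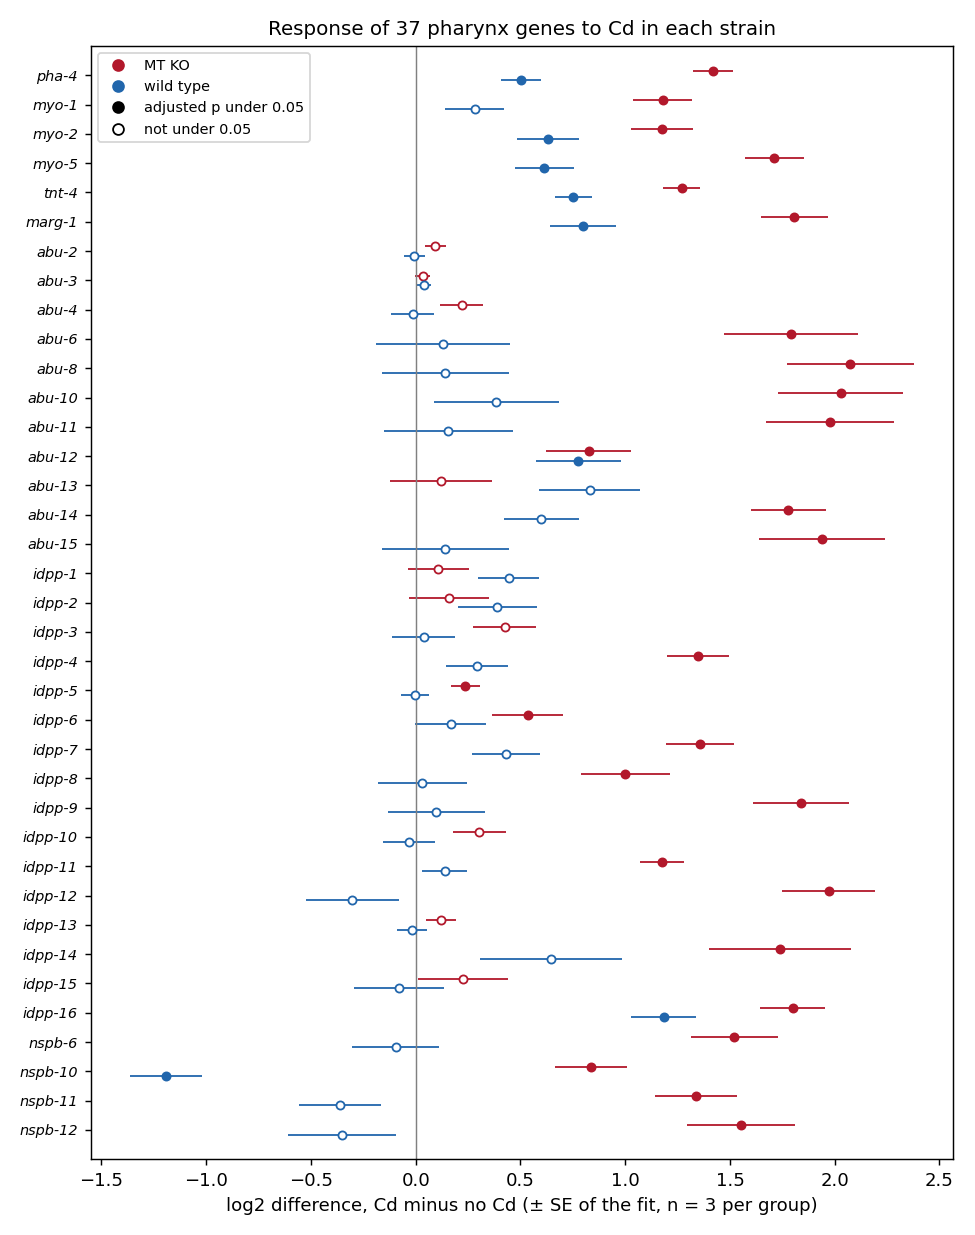
Log2 difference, Cd minus no Cd, of the 37 pharynx genes in MT KO (red) and in wild type (blue), with the SE of the limma fit as bars and 3 arrays per group. Filled points passed an adjusted p of 0.05; the 27 filled red points run from 0.24 for idpp-5 to 2.07 for abu-8, and nspb-10 is the filled blue point below 0.

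All 6 markers rose with Cd in MT KO, by a median of 1.34, and 5 of them rose in wild type, by a median over the 6 of 0.62. The transcription factor gene pha-4 had 5.37, 5.59 and 5.35 in MT KO with Cd, against 4.03, 3.95 and 4.06 in MT KO without Cd. Wild-type arrays gave 4.43, 4.67 and 4.53 with Cd, against 3.90, 4.21 and 4.01 without. Each strain's Cd arrays lay wholly above its arrays without Cd, and the MT KO arrays with Cd lay above all others. The rise was 2.68-fold in MT KO (log2 difference 1.42, SE 0.10, limma adjusted p = 1.03e-05) and 1.42-fold in wild type (0.50, SE 0.10, limma adjusted p = 0.00797). The means without Cd, 4.02 in MT KO and 4.04 in wild type, lay close to the median of all values, below which a signal may be background. A dimmer probe set of pha-4, below the median of all values in every group, rose by 0.47 in MT KO and differed by 0.08 in wild type.

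Among the muscle genes, myo-5, a myosin heavy chain of the pharynx, had 8.16, 8.11 and 8.30 in MT KO with Cd, against 6.73, 6.11 and 6.59 in MT KO without Cd. Wild-type values were 7.17, 7.40 and 7.41 with Cd, against 6.79, 6.67 and 6.68 without. None of these pairs of groups overlapped, and the distance between them was wider in MT KO. The rise was 3.28-fold in MT KO (1.71, SE 0.14, limma adjusted p = 3.16e-05) and 1.53-fold in wild type (0.61, SE 0.14, limma adjusted p = 0.0211).

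The pharyngeal troponin T gene tnt-4 had 10.58, 10.57 and 10.53 in MT KO with Cd, against 9.42, 9.22 and 9.24 in MT KO without Cd. For wild type the values were 9.74, 9.86 and 9.94 with Cd, against 8.94, 9.07 and 9.27 without. Again the Cd arrays of each strain stood clear of their controls, with a rise of 1.27 in MT KO (SE 0.09, limma adjusted p = 1.32e-05) and of 0.75 in wild type (SE 0.09, limma adjusted p = 0.000604).

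Of the other myosin heavy chain genes, myo-2 passed in both strains and myo-1 in MT KO. Values of myo-1 were 10.76, 10.85 and 10.78 in MT KO with Cd, against 9.97, 9.43 and 9.45 in MT KO without Cd. In wild type they were 10.44, 10.24 and 10.46 with Cd, against 10.27, 10.06 and 9.95 without, and these 2 groups overlapped. The rise of 1.18 in MT KO passed the test (SE 0.14, limma adjusted p = 0.000267); the wild-type difference of 0.28 did not (SE 0.14, limma adjusted p = 0.285). Both of its probe sets carry the suffix for probes shared between transcripts. The dimmer one rose in both strains, by 1.61 in MT KO and by 0.84 in wild type (limma adjusted p = 0.00266), so the wild-type call depends on the probe set.

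For myo-2 the values were 8.23, 8.37 and 8.23 in MT KO with Cd, against 7.28, 7.03 and 6.99 in MT KO without Cd. Wild-type arrays gave 7.67, 7.78 and 7.98 with Cd, against 6.88, 7.16 and 7.49 without. The groups did not overlap in either strain, and the gene rose by 1.18 in MT KO (SE 0.15, limma adjusted p = 0.000338) and by 0.63 in wild type (SE 0.15, limma adjusted p = 0.022).

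The marker marg-1 had 5.84, 5.82 and 6.25 in MT KO with Cd, against 4.24, 4.12 and 4.13 in MT KO without Cd. Wild-type values were 4.68, 4.93 and 5.14 with Cd, against 3.88, 4.12 and 4.35 without. No groups of a strain overlapped, and the rise was 3.50-fold in MT KO (1.81, SE 0.16, limma adjusted p = 4.24e-05) and 1.74-fold in wild type (0.80, SE 0.16, limma adjusted p = 0.00999).

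**Figure D2:**
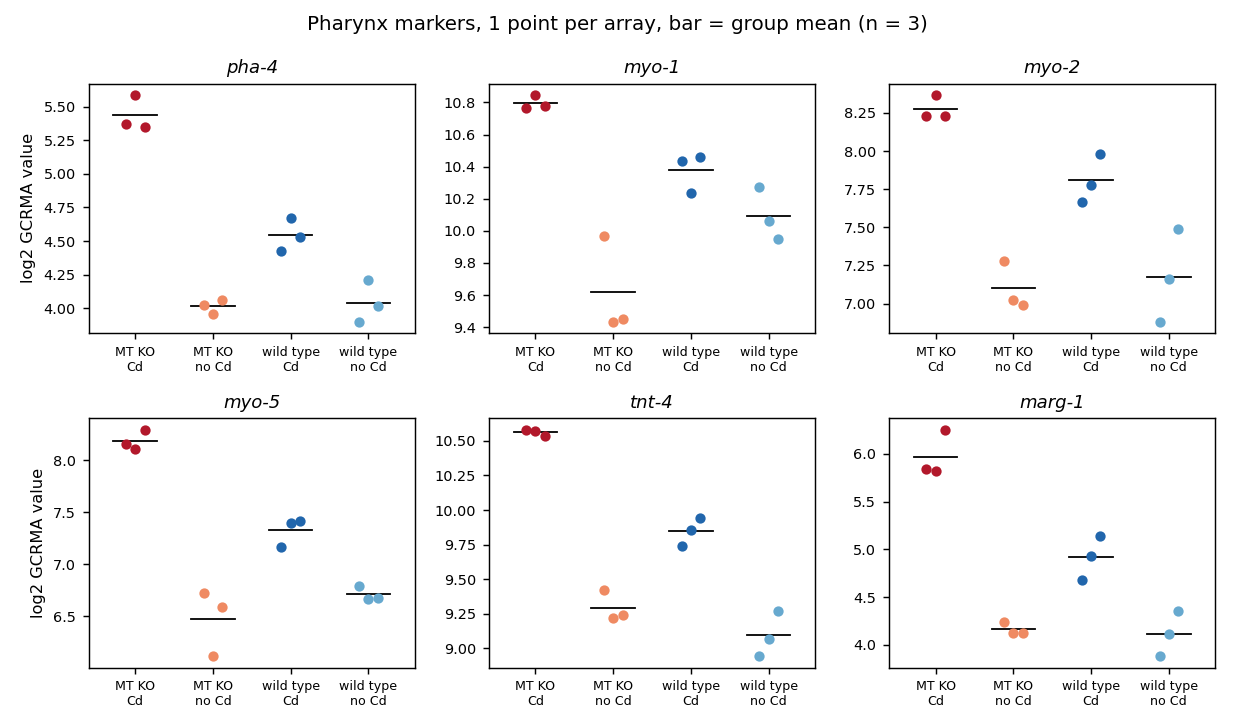
Log2 GCRMA values of the 6 pharynx markers, 1 point per array, with the mean of each group of 3 as a bar; the 4 groups are MT KO with and without Cd and wild type with and without Cd. In all 6 panels the MT KO arrays with Cd lie above the arrays of every other group, and only for myo-1 do the wild-type groups overlap.

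RNA quality, as far as control probes show it, was uneven among the arrays and differed with Cd. The 3′–5′ signal, which is the excess of 3′ over 5′ signal at the GAPDH and actin controls, averaged 0.917 in MT KO with Cd and 1.38 in MT KO without Cd, against 1.13 in wild type with Cd and 1.98 in wild type without Cd. It was highest, at 2.81, in wild type without Cd replicate 1. In MT KO it ran from 0.74 to 1.07 with Cd and from 1.27 to 1.48 without. In wild type it ran from 1.03 to 1.22 with Cd and from 1.28 to 2.81 without. The signal thus followed the exposure in both strains, and a fit that includes it cannot fully tell it apart from Cd. With this signal as a covariate, pha-4, myo-2, myo-5 and marg-1 no longer passed in wild type (limma adjusted p = 0.0889, 0.256, 0.0836 and 0.123), and 4 of the 37 genes were called in place of 8. The wild-type difference stayed at a similar size for pha-4, at 0.45, and for myo-5, at 0.68, while it was smaller for myo-2, at 0.34, and for marg-1, at 0.49. In MT KO all 6 markers kept their calls with it. The wild-type count also fell to 5 without wild type with Cd replicate 2. The calls of myo-2 and myo-5 each depended on 4 arrays. That of myo-2 was lost without wild type with Cd replicates 2 or 3 or wild type without Cd replicates 1 or 2 (limma adjusted p up to 0.0812). That of myo-5 was lost without wild type with Cd replicates 2 or 3 or wild type without Cd replicates 2 or 3 (up to 0.0748).

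Of the 11 abu genes, 7 rose with Cd in MT KO, by 0.83 to 2.07, and the median over the 11 was 1.78. In wild type only abu-12 passed, and the median was 0.14. The gene abu-14 had 10.17, 10.19 and 10.43 in MT KO with Cd, against 8.77, 8.46 and 8.22 in MT KO without Cd. For wild type the values were 8.98, 8.86 and 9.17 with Cd, against 8.18, 8.76 and 8.28 without. The groups of each strain stood apart, by more in MT KO: 1.78 (SE 0.18, limma adjusted p = 9.06e-05) beside a wild-type difference of 0.60 that did not pass (SE 0.18, limma adjusted p = 0.0604). Its other probe set rose in both strains, by 2.43 in MT KO and by 1.33 in wild type (limma adjusted p = 0.0107).

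The other abu genes with the largest rises in MT KO did not pass in wild type. For abu-8 the values were 10.13, 9.78 and 9.72 in MT KO with Cd, against 8.29, 7.79 and 7.33 in MT KO without Cd. In wild type they were 7.58, 7.97 and 8.38 with Cd, against 7.31, 8.13 and 8.06 without. Only the MT KO arrays with Cd stood out; the other 9 arrays overlapped. The rise in MT KO was 4.21-fold (2.07, SE 0.30, limma adjusted p = 0.000864), while the wild-type difference was 0.14 (SE 0.30, limma adjusted p = 0.963). Its other probe set gave 2.09 in MT KO and 0.04 in wild type.

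Values of abu-11 were 7.99, 7.80 and 7.70 in MT KO with Cd, against 6.25, 5.96 and 5.36 in MT KO without Cd. Wild-type arrays gave 5.71, 6.13 and 6.25 with Cd, against 5.19, 6.26 and 6.17 without. The picture was that of abu-8, with a rise of 1.98 in MT KO (SE 0.31, limma adjusted p = 0.00125) and a difference of 0.16 in wild type (SE 0.31, limma adjusted p = 0.946). For abu-10 the MT KO values were 7.53, 6.83 and 7.21 with Cd, against 5.62, 5.16 and 4.69 without, and the wild-type values were 5.14, 5.46 and 5.93 with Cd, against 4.73, 5.36 and 5.30 without. It rose by 2.03 in MT KO (SE 0.30, limma adjusted p = 0.000892), with overlapping wild-type groups and a difference there of 0.38 (SE 0.30, limma adjusted p = 0.565). A further abu-10 probe set stayed between 2.25 and 2.27 in the means of all 4 groups, far below the median of all values, where a rise may not be seen.

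The genes abu-6 and abu-15 rose by 1.79 and 1.94 in MT KO (limma adjusted p = 0.00282 and 0.00128), against 0.13 and 0.14 in wild type. Both are read, like abu-8, by probe sets whose suffix marks probes that match several transcripts, so their values may not be independent of one another. In RefSeq's gene order abu-15 and abu-6 are direct neighbours on chromosome V, with abu-8 7 protein-coding genes further on. On X, marg-1, idpp-5 and abu-10 follow each other with 1 protein-coding gene between neighbours, and the Cd response in MT KO exceeded that in wild type by 1.01, 0.24 and 1.64. On II, idpp-8 and idpp-4 also have 1 protein-coding gene between them, with values of 0.97 and 1.06. The group means of idpp-5 lay between 2.22 and 2.46, far below the median of all values, where a response may not be seen. Those of idpp-8 also stayed below that median.

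A pair of abu genes behaved otherwise. Values of abu-12 were 4.53, 4.63 and 4.46 in MT KO with Cd, against 3.67, 3.62 and 3.85 in MT KO without Cd, and 4.17, 4.31 and 3.84 in wild type with Cd, against 3.79, 3.34 and 2.86 in wild type without Cd. Cd arrays exceeded their controls in each strain, by 0.83 in MT KO (SE 0.20, limma adjusted p = 0.0163) and by 0.78 in wild type (SE 0.20, limma adjusted p = 0.0376). The wild-type call was lost when any of 10 arrays was left out (limma adjusted p up to 0.125), all but wild type without Cd replicate 1 and wild type with Cd replicate 3. The MT KO call was lost without replicate 2 of MT KO with Cd or replicate 2 of MT KO without Cd (limma adjusted p = 0.0547 and 0.0585).

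Alone among the brighter abu genes, abu-13 did not pass in MT KO. It had 7.86, 7.88 and 7.84 in MT KO with Cd, against 7.31, 7.67 and 8.25 in MT KO without Cd, which span them. Wild-type values were 8.54, 9.04 and 8.43 with Cd, against 8.16, 7.65 and 7.70 without. The wild-type groups did not overlap, yet the difference of 0.83 missed the threshold (SE 0.24, limma adjusted p = 0.0566). The last 3 genes, abu-2, abu-4 and abu-3, which RefSeq lists as a pseudogene, stayed between 2.29 and 3.05 on all arrays.

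**Figure D3:**
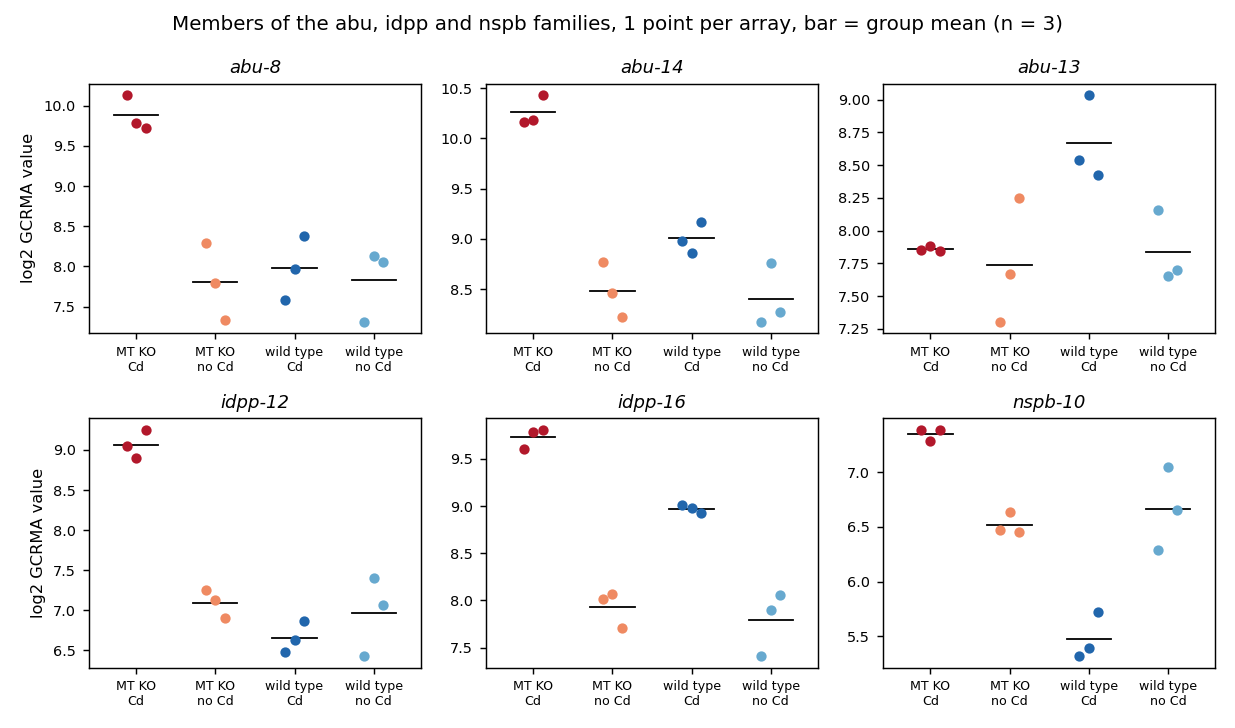
Log2 GCRMA values of 6 genes of the abu, idpp and nspb families, 1 point per array, with group means as bars and 3 arrays per group. The MT KO arrays with Cd lie above all other groups for abu-8, abu-14, idpp-12, idpp-16 and nspb-10, while for abu-13 the wild-type arrays with Cd are the highest.

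The idpp genes were more varied. Of 16, 10 rose with Cd in MT KO and none fell, with a median of 0.77; in wild type idpp-16 alone passed, and the median was 0.12. Values of idpp-16 were 9.60, 9.78 and 9.81 in MT KO with Cd, against 8.02, 8.06 and 7.71 in MT KO without Cd. For wild type the values were 9.01, 8.98 and 8.93 with Cd, against 7.41, 7.90 and 8.06 without. It rose in both strains without overlap, 3.48-fold in MT KO (1.80, SE 0.16, limma adjusted p = 3.86e-05) and 2.27-fold in wild type (1.18, SE 0.16, limma adjusted p = 0.00105).

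In contrast, idpp-12 rose in MT KO only. Its values were 9.05, 8.90 and 9.25 in MT KO with Cd, against 7.25, 7.12 and 6.91 in MT KO without Cd. In wild type they were 6.48, 6.62 and 6.87 with Cd, against 6.42, 7.40 and 7.06 without. The wild-type groups overlapped, with Cd the lower on average, and the rise in MT KO was 3.92-fold (1.97, SE 0.22, limma adjusted p = 0.00018) beside a wild-type difference of −0.30 (SE 0.22, limma adjusted p = 0.529). The only probe set of idpp-12 carries the suffix for probes that match several transcripts, so other transcripts may contribute to its values.

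Values of idpp-9 were 6.85, 6.71 and 6.99 in MT KO with Cd, against 5.22, 5.01 and 4.80 in MT KO without Cd. Wild-type arrays gave 4.58, 4.73 and 5.42 with Cd, against 4.47, 5.13 and 4.83 without. The rise in MT KO was 1.84 (SE 0.23, limma adjusted p = 0.000348), and the overlapping wild-type groups differed by 0.10 (SE 0.23, limma adjusted p = 0.978).

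For idpp-11 the MT KO values were 6.04, 5.72 and 6.06 with Cd, against 4.74, 4.65 and 4.91 without. The wild-type values were 4.66, 4.79 and 4.93 with Cd, against 4.65, 4.72 and 4.59 without. Here too the MT KO arrays with Cd stood apart from the other 9, by 1.18 in MT KO (SE 0.11, limma adjusted p = 5.1e-05), while the wild-type difference was 0.14 (SE 0.11, limma adjusted p = 0.562). The dimmer idpp-4 had 5.01, 4.81 and 4.80 in MT KO with Cd, against 3.87, 3.33 and 3.36 in MT KO without Cd, and 3.89, 3.66 and 3.92 in wild type with Cd, against 3.67, 3.55 and 3.36 in wild type without Cd. It rose by 1.35 in MT KO (SE 0.15, limma adjusted p = 0.000155), and its wild-type groups, which overlapped, differed by 0.29 (SE 0.15, limma adjusted p = 0.29).

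Both idpp-7 and idpp-14 also rose in MT KO, by 1.36 and 1.74 (limma adjusted p = 0.000267 and 0.00457), beside wild-type differences of 0.43 and 0.64 that did not pass (limma adjusted p = 0.136 and 0.311). The other 3 that passed, idpp-5, idpp-6 and idpp-8, stayed below the median of all values in every group mean, and the arrays of MT KO with Cd spread widely for idpp-8. The values of idpp-8 were 3.40, 2.91 and 4.01 in MT KO with Cd, against 2.52, 2.44 and 2.35 in MT KO without Cd, and those of the wild-type arrays lay between 2.50 and 2.58. The rises of idpp-5 and idpp-6 were 0.24 and 0.53. The calls of idpp-5 and idpp-6 were lost when single arrays were left out, for idpp-6 any of 10 arrays, all but MT KO with Cd replicate 2 and wild type with Cd replicate 3 (limma adjusted p up to 0.164). For idpp-5 these were MT KO with Cd replicate 1 and each array of MT KO without Cd (limma adjusted p up to 0.0948).

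The member farthest from the rest of the family was idpp-1. It had 8.96, 8.83 and 8.58 in MT KO with Cd, against 8.54, 8.60 and 8.91 in MT KO without Cd. Wild-type values were 9.75, 9.95 and 9.58 with Cd, against 9.51, 9.15 and 9.31 without. The MT KO groups overlapped and all 6 wild-type arrays lay above all 6 MT KO arrays. Neither Cd difference passed, with 0.11 in MT KO (SE 0.14, limma adjusted p = 0.679) and 0.44 in wild type (SE 0.14, limma adjusted p = 0.0854). The remaining 5, idpp-2, idpp-3, idpp-10, idpp-13 and idpp-15, differed by 0.12 to 0.42 in MT KO without passing.

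All 4 nspb genes rose with Cd in MT KO, by a median of 1.43, and in wild type all 4 differences were below 0, with a median of −0.36. The gene nspb-10 had 7.39, 7.29 and 7.39 in MT KO with Cd, against 6.47, 6.63 and 6.45 in MT KO without Cd. For wild type the values were 5.31, 5.39 and 5.72 with Cd, against 6.29, 7.05 and 6.65 without. The Cd and control arrays of each strain did not overlap and the directions were opposite: it rose 1.79-fold in MT KO (0.84, SE 0.17, limma adjusted p = 0.00649) and fell by 1.19 on the log2 scale in wild type (SE 0.17, limma adjusted p = 0.00186). A probe set shared by C01G12.13, nspb-10 and nspb-7 differed with Cd by −0.03 in MT KO and −0.04 in wild type. Its group means, 3.08 to 3.16, lay below the median of all values, where a response may not be seen.

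Values of nspb-6 were 7.03, 7.01 and 7.02 in MT KO with Cd, against 5.89, 5.34 and 5.27 in MT KO without Cd. In wild type they were 5.32, 5.44 and 5.87 with Cd, against 5.30, 5.93 and 5.69 without. The rise of 1.52 in MT KO passed (SE 0.21, limma adjusted p = 0.000598); the wild-type groups overlapped at a difference of −0.10 (SE 0.21, limma adjusted p = 0.965).

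For nspb-11 the MT KO values were 6.94, 6.85 and 6.96 with Cd, against 6.0, 5.43 and 5.30 without. The wild-type values were 4.82, 4.79 and 5.34 with Cd, against 5.18, 5.52 and 5.35 without. For nspb-12 they were 6.52, 6.60 and 6.54 in MT KO with Cd, against 5.47, 5.14 and 4.39 in MT KO without Cd, and 4.31, 4.48 and 4.82 in wild type with Cd, against 4.53, 5.11 and 5.03 in wild type without Cd. Both stood clear in MT KO with Cd and overlapped in wild type. Their rises in MT KO were 1.34 and 1.55 (SE 0.20 and 0.26, limma adjusted p = 0.000871 and 0.00189), and the wild-type differences of −0.36 and −0.35 did not pass (limma adjusted p = 0.335 and 0.529). The probe sets of nspb-10, nspb-11 and nspb-12 carry the suffix for probes shared by several transcripts, so related family members may contribute to each.

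Set against wild type with Cd, MT KO with Cd had 22 of the 37 genes higher and 1 lower, where 3.62% of all probe sets were higher and 4.94% lower. The median was 0.89 over the 37 and 0.02 over all probe sets. The arrays of MT KO with Cd are those of the Cd response above. By group, 4 of 6 markers, 6 of 11 abu, 8 of 16 idpp and all 4 nspb genes were higher. The largest differences were those of idpp-12, at 2.41 or 5.31-fold (SE 0.22, limma adjusted p = 0.000464), nspb-12 at 2.02 (SE 0.26, limma adjusted p = 0.00177), abu-15 at 1.97 (SE 0.30, limma adjusted p = 0.00405) and idpp-9 at 1.94 (SE 0.23, limma adjusted p = 0.00129). Among markers, marg-1 was higher by 1.06, pha-4 by 0.89, myo-5 by 0.86 and tnt-4 by 0.72, while myo-1 and myo-2 differed by 0.42 and 0.47 and did not pass (limma adjusted p = 0.115 and 0.0911). The gene that was lower was idpp-1, at −0.97 (SE 0.14, limma adjusted p = 0.00349). The difference of −0.81 for abu-13 did not pass (SE 0.24, limma adjusted p = 0.0787). Of the 23 calls, 19 held in every setting that read the gene, and those of idpp-7, idpp-8, idpp-14 and idpp-16 did not. Leaving out single arrays ended the call of idpp-14 for 7 of the 12 arrays, that of idpp-8 for 5 and that of idpp-16 for MT KO with Cd replicate 2 or wild type with Cd replicate 3 (limma adjusted p = 0.0524 and 0.0512).

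Without Cd, MT KO and wild type differed at 0 of the 37 genes by limma, where 0.94% of all probe sets were higher and 0.705% lower in MT KO. The median difference was −0.00. At an unadjusted p under 0.05, 0 genes were higher and 2 lower, myo-1 at −0.48 and idpp-1 at −0.64 (limma adjusted p = 0.145 and 0.0678). Of all probe sets, 14.9% had an unadjusted limma p under 0.05 in this comparison, higher and lower together. A single gene was called in each of 3 other limma settings. These were idpp-1 among brighter probe sets only, abu-12 with the 3′–5′ covariate, and myo-1 when replicate 1 of MT KO without Cd was left out, with limma adjusted p of 0.0285, 0.0294 and 0.0194. A difference that did not pass does not show that the strains were alike: for abu-8 the SE of the difference was 0.30, against 0.05 for abu-2.

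The Cd response itself differed between the strains at 17 of the 37 genes, all with the higher Cd difference in MT KO. This test takes the Cd difference in MT KO minus that in wild type, and uses the arrays of the comparisons above once more. Of all probe sets, 2.09% passed with a value above 0 and 3.36% with a value below 0. A value below 0 can be a smaller rise or a larger fall in MT KO. A value above 0 can hold a fall in wild type. Among the 17, the wild-type difference was below 0 for idpp-12 and the 4 nspb genes, and nspb-10 passed as lower there, by 1.19. The median over the 37 genes was 0.93, and 33 of the 37 values were above 0. By group, 5 of 6 markers (not myo-2), 4 of 11 abu genes (abu-8, abu-11, abu-14 and abu-15), 4 of 16 idpp genes (idpp-4, idpp-9, idpp-11 and idpp-12) and all 4 nspb genes passed. The difference was 2.27 for idpp-12 (SE 0.31, limma adjusted p = 0.00374), 2.03 for nspb-10 (SE 0.24, limma adjusted p = 0.00223) and 1.90 for nspb-12 (SE 0.37, limma adjusted p = 0.0163). For abu-8 it was 1.93 (SE 0.43, limma adjusted p = 0.0316) and for abu-11 1.82 (SE 0.43, limma adjusted p = 0.0432).

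Some differences nearly as large had SEs that kept them from passing. The difference for abu-6 was 1.66 (SE 0.45, limma adjusted p = 0.0694) and for abu-10 1.64 (SE 0.42, limma adjusted p = 0.0564). The family genes that rose in both strains, idpp-16 and abu-12, gave 0.62 (SE 0.22, limma adjusted p = 0.171) and 0.05 (SE 0.29, limma adjusted p = 0.959). Values below 0 came from abu-13, idpp-1, idpp-2 and abu-3, with −0.71 for abu-13 the lowest (SE 0.34, limma adjusted p = 0.348), and none of these passed.

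**Figure D4:**
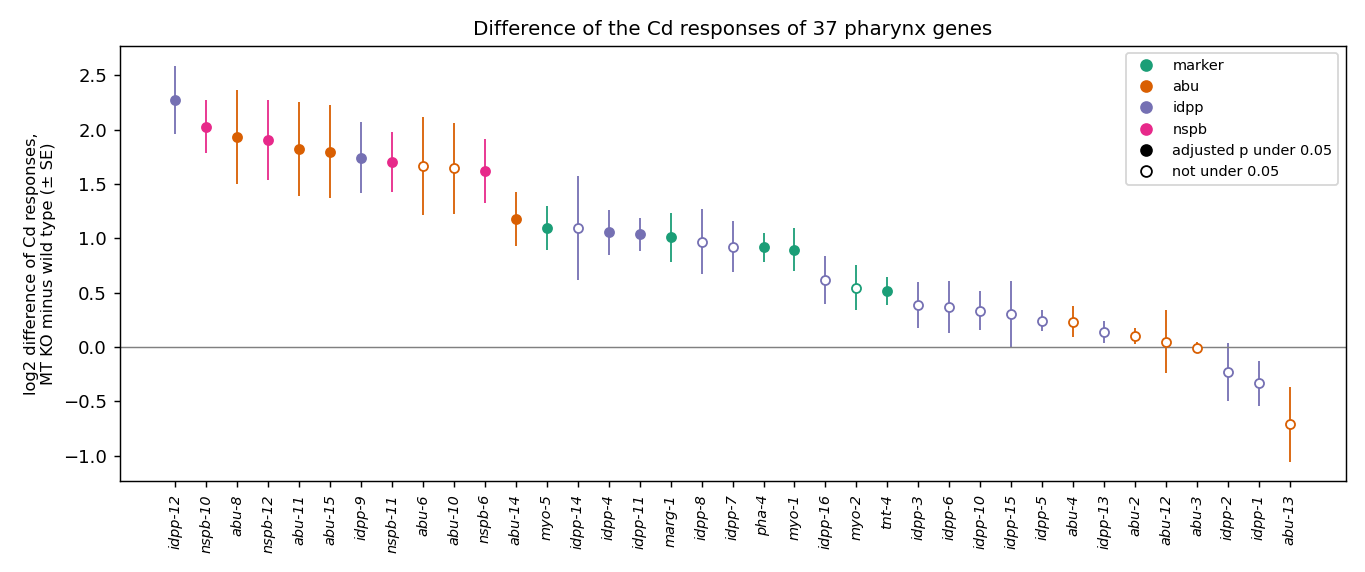
Difference of the log2 Cd responses, MT KO minus wild type, of the 37 pharynx genes in descending order, with the SE of the limma fit as bars; colours mark the group of genes and filled points passed an adjusted p of 0.05. The 17 filled points run from 2.27 for idpp-12 to 0.52 for tnt-4, and 4 genes lie below 0.

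Single arrays mattered for this last test. The count of 17 fell to 10 without any of 5 arrays, which were wild type without Cd replicate 2, wild type with Cd replicates 1 and 2, and MT KO without Cd replicates 2 and 3. Calls that held in every setting that read the gene were those of 9 genes: pha-4, myo-5, idpp-9, idpp-11, idpp-12, nspb-6, nspb-10, nspb-11 and nspb-12. Of these, the setting limited to probe sets without a suffix for shared probes read only idpp-9, idpp-11 and nspb-6. The dimmer pha-4 probe set, which has no such suffix, gave a difference of 0.39 that did not pass (limma adjusted p = 0.13). The other abu-14 probe set gave 1.10 and did not pass either (limma adjusted p = 0.153). Those of abu-8 and myo-1 passed, at 2.05 and 0.77 (limma adjusted p = 0.0124 and 0.0438). The 4 abu calls were each lost without at least 5 of the arrays, as were those of myo-1, tnt-4 and marg-1, and that of idpp-4 without wild type without Cd replicate 2 (limma adjusted p = 0.0507). With the replicate number as a block, tnt-4 and all 4 abu genes lost their calls (limma adjusted p between 0.0623 and 0.0794), so that no abu gene was called. For the Cd response in MT KO, 23 of 27 calls held in every setting that read the gene; the others were abu-12, idpp-5, idpp-6 and idpp-8.

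The mean level of the families varied between arrays of a group. The mean over the 31 abu, idpp and nspb genes was 6.10, 5.97 and 6.07 in MT KO with Cd, against 5.15, 4.98 and 4.87 in MT KO without Cd. It was 5.0, 5.12 and 5.27 in wild type with Cd, against 4.79, 5.12 and 5.04 in wild type without Cd. The array of wild type without Cd with the lowest mean, replicate 1, is also the one with the highest 3′–5′ signal. There, 21 of the 28 brighter genes lay below their group mean, while the median deviation of all probe sets was 0.03. The mean deviation of the 28 was −0.23 there, and the array had the lowest array weight, 0.289. Counts of that kind also occurred on other arrays, with smaller mean deviations. On wild type with Cd replicate 1 (3′–5′ signal 1.22) 24 of the 28 lay below, with a mean deviation of −0.15. On MT KO without Cd replicate 3 (1.39) 21 of the 28 did, with a mean deviation of −0.16. The part of RNA quality in these values was not tested beyond the covariate, which cannot fully tell it apart from Cd. With the covariate 25 of the 37 genes were called for Cd in MT KO and 22 for the difference of the responses.

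Other genes of the organ were read from lists of its cell types. Of 6 further pharynx muscle genes measured, 5 rose with Cd in MT KO and 0 fell, with a median of 0.74. Among them, exp-2, a potassium channel of the pharynx muscle, rose by 0.91, tni-4, a troponin I, by 0.89 and tnc-2, a troponin C, by 0.60 (limma adjusted p = 0.000661, 0.0012 and 0.00124). In wild type tni-4 and exp-2 rose, by 0.56 and 0.50 (limma adjusted p = 0.0273 and 0.0334), and the difference of the responses passed for none of the 6. Of 7 pharynx gland genes 5 rose in MT KO, with a median of 1.08. They were led by phat-2 at 1.08, phat-6 at 1.39 and phat-5 at 1.42 (limma adjusted p = 2.71e-05, 0.000469 and 0.000741). In wild type phat-3, phat-6 and phat-5 rose, by 0.96, 0.89 and 0.85 (limma adjusted p = 0.0109, 0.012 and 0.0237), and the responses differed for phat-2 alone (0.91, limma adjusted p = 0.00343).

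All 3 genes listed for the lining rose in MT KO: the astacin protease genes nas-6 and nas-7 by 1.58 and 1.20, and chs-2, a chitin synthase of the pharynx, by 0.43 (limma adjusted p = 8.49e-05, 0.0263 and 0.032). Of these, nas-6 also rose in wild type, by 0.59 (limma adjusted p = 0.0405). Of 47 pqn genes outside the set, named for prion-like glutamine- and asparagine-rich stretches, 20 rose in MT KO and 0 fell, with a median of 0.24, while in wild type 7 rose and 1 fell. The difference of the responses passed for 6 of the 47, all above 0. Its median over the 47 was 0.11, and 13 values lay below 0. Among the 6, the response of pqn-63 was higher in MT KO by 1.91, that of pqn-71 by 1.66 and that of pqn-36 by 1.25 (limma adjusted p = 0.00159, 0.00481 and 0.00268).

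Of 8 other transcription factors of the organ, 4 stayed below the median of all values in every group mean, hlh-6 among them. In MT KO 2 of the 8 rose, ceh-34 by 0.40 and hlh-6 by 0.17 (limma adjusted p = 0.0145 and 0.0293), and peb-1, which acts in pharynx development, fell by 1.22 (limma adjusted p = 0.000478). Differences of the 8 were above 0 at 7, with a median of 0.13; that of ceh-22, a pharynx muscle factor, was 0.72 and did not pass (limma adjusted p = 0.0643). None of the 8 passed in wild type.

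Markers of other cell types and of stage moved in the same arrays, and their part in the values of the pharynx genes was not tested. Body wall muscle markers were near level: 1 of 9 rose with Cd in MT KO, with a median of 0.15, and 0 passed in wild type. Their mean level ran from 10.30 to 10.52 in MT KO with Cd and from 10.22 to 10.45 in MT KO without Cd, against 10.33 in all 3 arrays of wild type with Cd and 10.28 to 10.48 in wild type without Cd. Neuron markers rose at 5 of 9 genes in MT KO, with a median of 0.43, and at 3 of 9 in wild type.

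Markers tied to the moult and to stage went the other way. Of 15 hypodermis and moulting markers, 9 fell and 1 rose with Cd in MT KO, with a median of −0.70, and 0 passed in wild type. Their mean level ran from 7.04 to 7.19 in MT KO with Cd and from 7.40 to 7.78 in MT KO without Cd, against 7.64 to 7.72 in wild type with Cd and 7.65 to 7.87 in wild type without Cd. The gene that rose was mlt-7 (1.32, limma adjusted p = 0.0012), a peroxidase needed for moulting, and mlt-11 fell by 1.34 (limma adjusted p = 2.61e-05). Of 9 larval cuticle collagens 4 fell in MT KO, among them dpy-3, dpy-2 and dpy-7 by 1.40, 1.16 and 1.09. Their mean level lay between 10.54 and 10.55 in MT KO with Cd, against 10.68 to 11.34 in MT KO without Cd, and between 11.30 and 11.49 in wild type with Cd, against 11.15 to 11.28 in wild type without Cd.

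Of the 3 adult cuticle genes bli-1 and bli-2 fell in MT KO, by 1.73 and 1.80, while col-19, an adult collagen, lay below the median of all values in every group. Sperm markers fell at 5 of 6 genes in MT KO, with a median of −2.56, and at 0 of 6 in wild type; their mean level ran from 5.24 to 5.50 in MT KO with Cd and from 7.46 to 7.78 in MT KO without Cd, against 6.66 to 6.96 in wild type with Cd and 6.85 to 7.17 in wild type without Cd. Of 6 germline markers 3 fell in MT KO, and of 6 oocyte markers 1 rose in MT KO and 5 rose in wild type. Intestine markers went both ways, with 1 of 8 higher and 3 lower in MT KO. No defining marker list was absent: at least 1 gene of each exceeded the median of all values in some group.

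**Figure D5:**
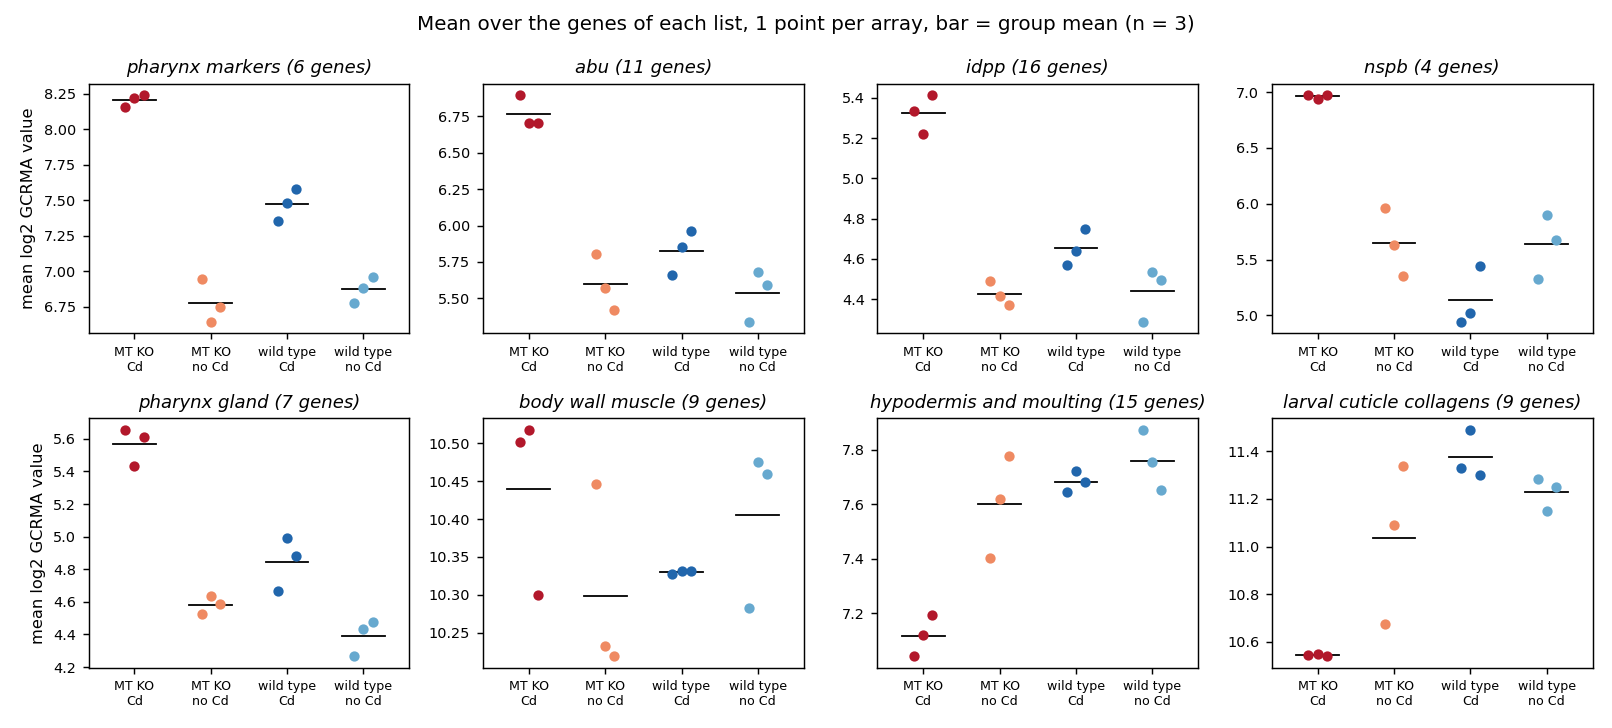
Mean log2 GCRMA value over the genes of 8 lists, 1 point per array, with the group mean as a bar and 3 arrays per group. In the panels of pharynx markers, abu, idpp, nspb and pharynx gland genes the MT KO arrays with Cd are the highest, in those of moulting markers and larval collagens they are the lowest, and in that of body wall muscle the groups overlap.

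Outside the set, the 5 genes whose profile over the 12 arrays was most like the mean of the 37 were R12E2.7 (Pearson r 0.991), hpo-26 (0.985), appg-2 (0.983), idpc-2 (0.983) and W03F8.6 (0.980), among genes whose group means span at least 1 log2 unit. The 12 points fall into the 4 groups, so these values are a description. In MT KO with Cd and MT KO without Cd, appg-2 averaged 5.38 and 3.25, against 3.79 and 3.38 in wild type with and without Cd, and idpc-2 averaged 7.66 and 5.63, against 5.79 and 5.57.

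Not every gene of the families could be read. RefSeq names 15 abu genes, of which abu-1, abu-5, abu-7 and abu-9 were present only on probe sets with several symbols. It names 12 nspb genes, of which 6 were present only on such probe sets and 2, nspb-8 and nspb-9, on none. All 16 idpp genes were read. The 37 genes lie on all 6 chromosomes, with 12 on X, 9 on V, 6 on II, 5 on III, 3 on IV and 2 on I.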

How the data were processed

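Total RNA of whole L4 larvae, 200 ng per sample, was amplified, labelled with biotin and hybridised to 12 arrays, per the labels. The deposited log2 values, 1 per probe set and array, came from GCRMA, per the submitters' processing notes; the sources used here give no version. They ran from 1.56 to 14.50 with array medians between 3.98 and 4.07, and were used as deposited, with no filter. Depth does not apply to arrays; the number of arrays limits the precision.

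Of 22625 features, 77 controls were set aside and 22548 tested; 20766 carried 1 gene symbol, 887 several and 895 none. The platform annotation named the genes. All 37 members matched the RefSeq table of assembly WBcel235, used only for names, chromosomes and gene order. No coordinates and no sequences were used here.

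A mean per group was fitted with limma 3.58.1 in R 4.3.3 to the 12 arrays together (8 residual degrees of freedom, prior 1.38), two-sided, with Benjamini-Hochberg adjustment over the 22548 probe sets and a threshold of 0.05. Member probe sets were read from that fit. The script was tested on simulated data.

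The members and lists were chosen with earlier results of these data known. Genes given in full were the 6 markers and, in each family, the 4 with the smallest adjusted p for Cd in MT KO, the 2 with the largest difference of the Cd responses and the 1 farthest below the others. Up to 3 examples per further list had the smallest adjusted p, and other members could be named. Probe sets other than the brightest were chosen after their values were seen. Planned promoter and protein measures are not analysed here.

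Alternatives were an intensity trend, array weights, the replicate block, only the compared arrays, quantile normalization, a filter on dim probe sets, the 3′–5′ covariate, the mean of all probe sets of a gene, only probe sets without a suffix for shared probes, and leaving out each array.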

Additional observations from a re-analysis of the deposited data

Results flagged for a closer look

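At 17 of the 37 pharynx genes the Cd response of MT KO differed from that of wild type by limma's test of the difference itself, and these are listed because the strains differ under the same exposure. Among markers the difference of the log2 responses, MT KO minus wild type, was 1.10 for myo-5, 1.01 for marg-1, 0.92 for pha-4, 0.90 for myo-1 and 0.52 for tnt-4. Among abu genes it was 1.93 for abu-8, 1.82 for abu-11, 1.80 for abu-15 and 1.18 for abu-14. Among idpp genes it was 2.27 for idpp-12, 1.74 for idpp-9, 1.06 for idpp-4 and 1.04 for idpp-11. Among nspb genes it was 2.03 for nspb-10, 1.90 for nspb-12, 1.70 for nspb-11 and 1.62 for nspb-6. Groups of 3 arrays are too small for the test of single outlying samples.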

How the results depend on the processing

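Counts of called pharynx genes are given here as other limma settings changed them. Only probe sets without a suffix for shared probes read 21 of the 37 genes, and called 14 for Cd in MT KO, 3 for Cd in wild type, 13 between the strains with Cd and 7 for the difference of the Cd responses, against 27, 8, 23 and 17; fewer genes were read by construction. With the 3′–5′ covariate 4 were called for Cd in wild type and 1 between the strains without Cd, and with the filter on dim probe sets 1 was called between the strains without Cd; the cause was not tested. Leaving out each array in turn gave 24 to 28 for Cd in MT KO, 5 to 9 for Cd in wild type, 20 to 25 between the strains with Cd, 0 to 1 without Cd and 10 to 20 for the difference of the responses. No called gene changed sign under any setting.

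The replicate number as a block gave 27, 8, 22, 0 and 12 called genes, in the order Cd in MT KO, Cd in wild type, the strains with Cd, the strains without Cd and the difference of the responses. The samples share only a number: deviations of same-numbered arrays correlated between −0.20 and 0.24, and 5 of 18 pairs exceeded 0.1. The fit of only the compared arrays could not be made for the difference of the responses, which uses all 12.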

Other observations

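Probe sets with several symbols, which name no single gene, held the family members that could not be read alone. The one shared by pqn-2 and abu-1 averaged 7.90 in MT KO with Cd and 5.74 in MT KO without Cd, against 5.97 in wild type with Cd and 5.93 in wild type without Cd; its Cd response was larger in MT KO by 2.12 (limma adjusted p = 0.019). The one shared by pqn-57 and abu-9 averaged 6.50 in MT KO with Cd and 4.03 in MT KO without Cd, against 4.46 in wild type with Cd and 3.85 in wild type without Cd, and its responses did not differ by the test (1.86, limma adjusted p = 0.0888). A probe set shared by nspb-1 to nspb-5 averaged 8.71 in MT KO with Cd and 7.74 in MT KO without Cd, against 7.34 in wild type with Cd and 7.83 in wild type without Cd. Its differences with Cd, 0.96 in MT KO and −0.49 in wild type, did not pass (limma adjusted p = 0.0566 and 0.452), while MT KO with Cd exceeded wild type with Cd by 1.37 (limma adjusted p = 0.027). Each of a pair of probe sets shared by nspb-2 and nspb-3 rose by 0.92 with Cd in MT KO (limma adjusted p = 0.0252 and 0.021). The responses differed by 1.39 for one and by 1.49 for the other (limma adjusted p = 0.0547 and 0.035). These probe sets were looked up after the values of the named genes had been seen.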
